A study of Danio rerio with 16 samples.

Results

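The cells described here were differentiating neurons found among cells sorted for neutrophil fluorescence. They were chosen by the unique molecular identifiers (UMIs, each standing for 1 captured transcript) of 5 neuron markers, elavl3, elavl4, stmn1b, gng3 and nsg2. A barcode was a cell when it held at least 1000 UMIs, 300 to 7500 genes and at most 10% mitochondrial UMIs. A cell was set aside as myeloid when lyz reached 1% of its UMIs or when mfap4, mpeg1.1, marco, fgl2a, lgals3bpb and c1qb together passed 2 UMIs. Of the remaining cells, those with at least 3 UMIs over the 5 markers were called neurons. This gave 640 neurons of 7599 cells (8.42%), which were 37.0% of the 1732 cells that were not myeloid. The other non-myeloid cells were 441 that held at least 3 UMIs of 10 progenitor genes (sox2, sox3, sox19a, her4.1, her4.2, her15.1, her9, fabp7a, notch3 and notch1a), called progenitor-like below, and 651 others. The remaining 5867 cells were myeloid.

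All cells came from zebrafish embryos of the line Tg(mpx:Dendra2), in which the promoter of the neutrophil myeloperoxidase gene mpx drives Dendra2, a protein that turns from green to red under violet light. Every embryo had its head photoconverted at 34 and again at 44 hours post fertilization (hpf). In the cut groups the caudal fin was transected at 54 hpf, and 3 h later the pooled embryos of cut and uncut (normal) groups were dissociated and red and green cells were sorted separately. Red cells stood for neutrophils derived from the rostral blood island (RBI) and green cells for those derived from the caudal hematopoietic tissue (CHT), and this match of colour and library name was inferred from the library names. There were thus 4 groups, a normal and a cut library of RBI-derived (red) cells and the same pair of CHT-derived (green) cells, with 1 count matrix each. No group had a replicate, so no comparison between groups was tested, and each interval below is a 95% interval that covers counting error only. Neurons were not what the promoter labels or the sort aimed at, so their share of a library and the way the gate let them in cannot be told apart.

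Neurons arise when proneural factors such as Neurog1 start a program in a dividing progenitor, which then leaves the cell cycle. Notch ligands such as Dla and Dlb on the newborn neuron hold its neighbours as progenitors. The RNA-binding proteins Elavl3 and Elavl4 (HuC and HuD) appear as the cell leaves the cycle, followed by microtubule and growth cone proteins, axon guidance receptors, synaptic vesicle proteins and the genes of a transmitter. Transcription factors then record where a neuron was born, hox genes in the hindbrain and spinal cord and factors such as Dlx, Otx and Six6 in front of them.

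The neurons numbered 92 of 1196 cells in the RBI-derived normal library (7.69%, 6.25 to 9.35). They numbered 44 of 1629 in RBI-derived cut (2.70%, 1.97 to 3.61), 240 of 1849 in CHT-derived normal (12.98%, 11.5 to 14.6) and 264 of 2925 in CHT-derived cut (9.03%, 8.01 to 10.1). Both cut libraries thus held a smaller share of neurons than the normal library of the same colour, beyond counting error. As a share of non-myeloid cells, neurons were 47.2%, 27.3%, 38.5% and 35.1% in the same order, and the CHT-derived shares were within each other's intervals. The median neuron held 2171.5, 1440.5, 2871 and 1833 UMIs, and the neurons of a library held 249186, 68137, 760404 and 583438 UMIs in all. RBI-derived cut therefore gave the fewest and the shallowest neurons. In RBI-derived normal, 1 neuron with 41160 UMIs carried 16.5% of all neuron UMIs, and in CHT-derived cut 1 neuron with 29083 UMIs carried 4.98%. Where stated, results that rested on such a cell are also given without it. Levels by library include these cells. Pairs of libraries shared 1 to 9 cell barcodes, and no barcode was a neuron in more than 1 library.

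Each of the 5 markers was detected in all 4 libraries, and these values are a description because they chose the cells. Levels are CPM, a gene's UMIs summed over the neurons of a library and scaled to 1000000 UMIs of those neurons. stmn1b, a microtubule-destabilizing stathmin, was found in 550 neurons (85.9%) at 1449, 1923, 1334 and 1496 CPM in the order used throughout, the normal and then the cut library of RBI-derived cells followed by the same pair of CHT-derived cells. elavl3 was found in 502 neurons (78.4%) at 2071, 1071, 1898 and 941 CPM, so that it was lower in both cut libraries. gng3, a G protein gamma subunit, was found in 477 neurons (74.5%), nsg2, a neuronal endosomal protein, in 377 (58.9%) and elavl4 in 313 (48.9%). elavl4 had the largest fold over all other cells, 402 (337 to 482), and stmn1b the smallest, 170 (152 to 192). At least 3 of the 5 markers were present in 472 neurons (73.8%), and the remaining neurons rested on fewer markers.

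**Figure D1:**
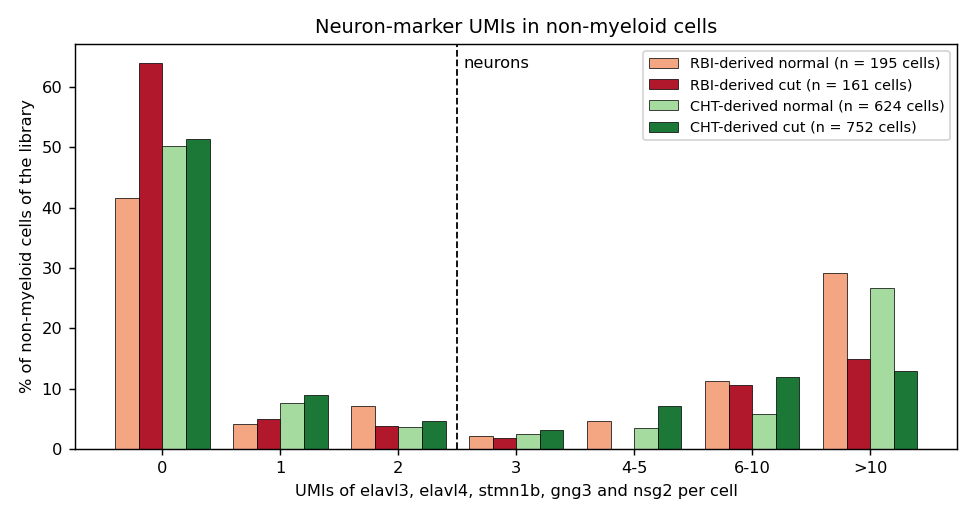
UMIs of the 5 neuron markers per cell (horizontal) against the percent of each library's non-myeloid cells (vertical), 1 bar for each of the 4 libraries and a dashed line at the limit. Of all non-myeloid cells, 884 had 0 marker UMIs and 345 had more than 10, with 78 at 2 and 46 at 3, on either side of the limit.

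The limit of 3 marker UMIs cut through few cells. It left out 78 cells with 2 marker UMIs and took in 46 with 3. The growth cone protein gene gap43 had 42.6 CPM in cells with 2 marker UMIs, 112 in those with 3 and 586 in those with more than 10, against 2.75 in cells with none. The Notch ligand gene dla had 264 CPM at 2 marker UMIs, 34.5 at 3, 247 at 4 to 5 and 217 at 6 to 10, and so did not separate cells on either side. Muscle genes summed to 5283 CPM at 2 marker UMIs and to 302 at 3, but the share of cells with a muscle UMI was alike, 39.7% and 43.5%.

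Against all other cells, of which most were myeloid, neurons had 2134 genes at least 4-fold higher (19.7% of 10846 genes with at least 100 UMIs) and 1852 at least 4-fold lower (17.1%). The neurons were chosen on genes of the same cells. A gene found almost only in neurons also reached 100 UMIs through them, here and in the list counts below. Nothing is therefore read from these counts. They also depend on the scaling. With edgeR's trimmed mean of M values (TMM) in place of total UMIs, every log2 ratio of this comparison shifted by -1.18 and the split became 1179 higher and 3044 lower, so that 27.9% rather than 53.5% of the differing genes were higher. Lists of neuron genes kept a positive median under both scalings, whereas the medians of mitosis genes (0.71 and -0.47), epidermis genes (0.06 and -1.12) and immediate early and stress genes (0.18 and -0.996) turned from positive to negative with TMM.

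Genes of the neuronal cytoskeleton and growth cone, other than the rule's own, were the most abundant neuron list, with 12961 CPM in neurons against 997 in all other cells and 2881 in progenitor-like cells. Of its 23 members with enough UMIs, 20 were at least 4-fold higher than in all other cells, with a median log2 ratio of 5.98, and none was 4-fold lower. The tubulin gene tubb5 had 1096, 998, 1245 and 547 CPM by library, 82.5-fold (74.2 to 91.8) over the rest. tubb2b was the most abundant member at 2832 CPM but only 5.81-fold over the rest, with 487 CPM there and 1380 in progenitor-like cells. gap43 had 373, 543, 454 and 370 CPM, and stmn2a, a growth cone stathmin, had 321, 660, 426 and 273. Their folds over the rest were 171 (138 to 215) and 283 (211 to 386). tubb5 and stmn2a were lowest in CHT-derived cut, where the rule markers were also fewest per cell.

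Synaptic vesicle and release genes followed the same pattern at a lower level. They summed to 4754 CPM in neurons, 99.5 in other cells and 451 in progenitor-like cells, and 22 of 23 were at least 4-fold higher than in other cells (median log2 7.03). The SNARE gene snap25a had 261, 367, 325 and 192 CPM, a 269-fold difference. Its paralogue snap25b had 169, 602, 264 and 446 and was 51.0-fold (43.8 to 59.6) over the rest, with 73.4 CPM in progenitor-like cells. The paralogues therefore did not share an order of libraries, although in RBI-derived cut a single cell held 63.4% of the snap25b UMIs.

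Neuronal RNA-binding and chromatin genes were at least 4-fold higher for 24 of 25 members (median log2 5.69). zc4h2, a zinc finger gene needed for neuron development, was the most widespread of them, in 517 neurons at 1183 CPM, and the splicing regulator gene nova2 was in 484 at 889 CPM. Axon guidance and adhesion genes were 4-fold higher for 60 of 67 (median 4.38). The synaptic adhesion gene nrxn1a had 449, 690, 468 and 475 CPM and was 212-fold (170 to 269) over the rest. The adhesion gene ncam1a, at 602 CPM, was 30.5-fold over it, and the guidance receptor gene robo1, at 341 CPM, 27.8-fold. Ion channel and receptor genes were 4-fold higher for 19 of 23 (median 5.28), led in level by the sodium pump subunit atp1b2a at 243 CPM and including the calcium channel gene cacna1aa, at 125 CPM and 144-fold over the rest.

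Proneural and Notch ligand genes were 4-fold higher for 23 of 30 members and lower for 1 (median 3.97). ebf3a, a factor of early neuron differentiation, had 880 CPM in 249 neurons, and insm1a, which acts as progenitors leave the cycle, had 329, 117, 462 and 201 CPM in 168 neurons. Neural progenitor genes were also above all other cells, with 22 of 40 higher and 3 lower (median 2.36), but below progenitor-like cells, as the next comparison shows. Of 26 S phase genes 1 was higher and 1 lower (median -0.07), whereas with TMM none was higher and 4 were lower (median -1.25).

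**Figure D2:**
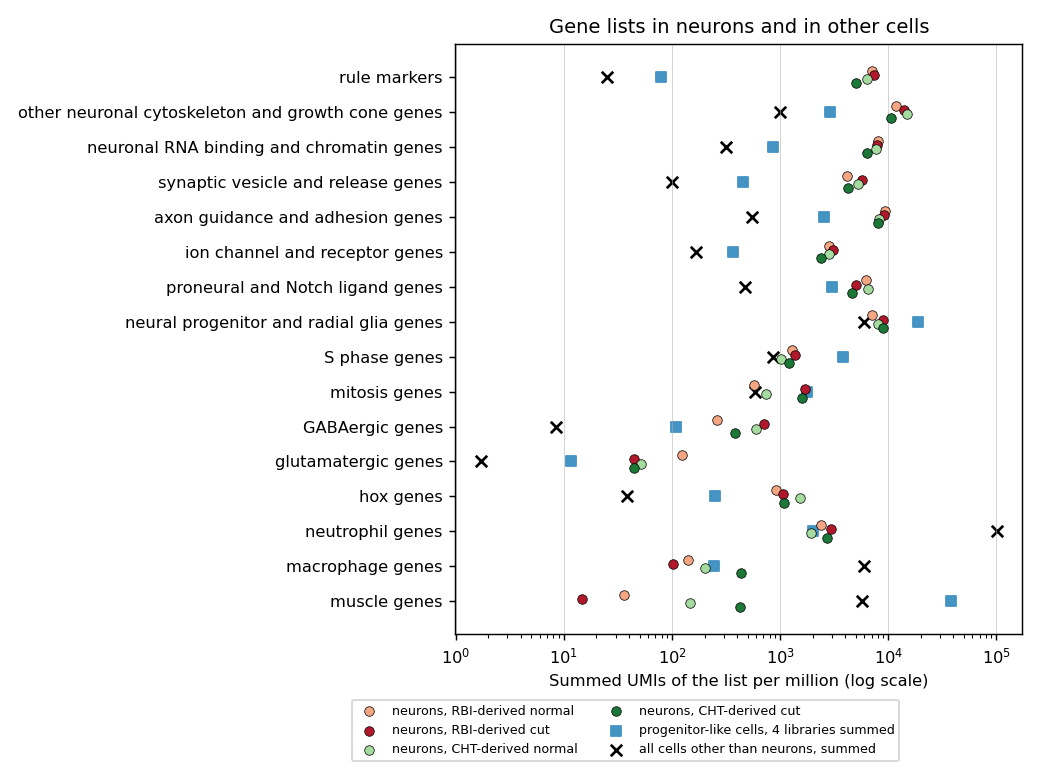
Summed CPM of each gene list (horizontal, log scale) in the neurons of each library (circles), in progenitor-like cells (squares) and in all cells other than neurons (crosses), the last 2 summed over libraries. Neuron lists lie to the right in neurons, with synaptic genes at 4170 to 5768 CPM against 451 in progenitor-like cells, while muscle genes lie at 14.7 to 423 against 38261.

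The genes with the largest ratios over all other cells included several that 1 or a few cells supplied. sst1.1, a somatostatin gene, was 893-fold (404 to 2457) over the rest, yet 7 neurons held it and 62.6% of its UMIs were in 1. sst1.2 was in 1 neuron and pyyb, a peptide YY gene, in 2. phox2a, a factor of cranial motor and autonomic neurons, was 357-fold over the rest with 45.7% of its UMIs in 1 of 19 cells. Other leading genes were broad. The sialyltransferase gene st8sia5 was 336-fold (199 to 610) over the rest in 153 neurons, the zgc:65894 transcript 282-fold in 240, apc2, a microtubule-linked relative of APC, 311-fold in 128, scg2b, a secretogranin of dense core granules, 416-fold (274 to 664) in 119 and lhx1a, a LIM homeobox factor of interneurons, 331-fold (196 to 602) in 101. rasd4 was 497-fold in 70 neurons, uncx, a homeobox factor, 308-fold in 70, and otpa and otpb, paralogous factors of neuroendocrine neurons, 338-fold and 311-fold in 38 and 34. At the other end, slc12a9, ccl34b.8, cyth4b, CABZ01026681.1, zgc:158403 and pigrl4.2 had no UMI in neurons and were at least 36.8-fold, 25.6-fold, 24.5-fold, 23.4-fold, 21.7-fold and 20.9-fold lower, against a floor of 3 UMIs over all neurons. The embryonic globin genes hbae1.3 and hbae1.1 had 6.62 and 2.41 CPM in neurons and 1184 and 311 in the rest.

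The next comparison was with progenitor-like cells. The rule for them also let in cells with muscle genes, which summed to 38261 CPM against 222 in neurons. Neurons had 588 of 4349 genes at least 4-fold higher than progenitor-like cells (13.5%) and 288 at least 4-fold lower (6.62%). Synaptic genes were higher for 19 of 23, cytoskeleton genes for 16 of 19, RNA-binding and chromatin genes for 17 of 22, ion channel genes for 12 of 14, peptide genes for 7 of 8 and hox genes for 5 of 7. Members entered with at least 100 UMIs over both sides. A member found only in neurons, such as sv2a (231 UMIs against 0), thus entered through the neurons. These list counts are a description. Progenitor genes were 4-fold lower for 10 of 36 and higher for 3 (median log2 -1.17), and S phase genes were lower for 8 of 19 and higher for none (median -1.84). fabp7a, a fatty acid-binding protein of radial glia, had 841 CPM in neurons and 3796 in progenitor-like cells, but 27.3% of its neuron UMIs came from 1 cell. The chromatin gene hmgb2a had 3410 against 6916, and mdka, a growth factor of radial glia, 224 against 733. These lists partly chose the progenitor-like cells, so their direction there is a description. All 16 tested muscle genes were at least 4-fold lower in neurons (median -7.69), as were 10 of 13 epidermis genes.

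Among single genes, stmn4l, si:dkey-178k16.1, calb2a, nell2b, sst1.1 and sv2a had no UMI in progenitor-like cells and were at least 159-fold, 128-fold, 105-fold, 98.9-fold, 97.7-fold and 96.0-fold higher in neurons. calb2a encodes calretinin, a calcium buffer of many neuron types, and sv2a a synaptic vesicle glycoprotein. elavl4 was 731-fold higher, but it is a rule marker and progenitor-like cells were those under the limit of 3 marker UMIs, so the rule set this direction. The parvalbumin gene pvalb5 was 732-fold higher, but it was in only 14 neurons, with 28.5% of its UMIs in 1. calb2a was in 28 neurons, with 37.5% in 1. The lowest genes were of muscle and fin fold: tnnt3a, a troponin, with 2 UMIs in neurons and 1217 in progenitor-like cells, myhz2, a myosin, with 4 and 1912, mylpfb, a myosin light chain, with 4 and 1449, si:ch73-367p23.2 with 1 and 650, and and2, an actinodin of the fin fold, with 0 and 177.

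Within the neurons, cells with more marker UMIs held fewer progenitor and S phase transcripts. The order by marker UMIs rests on the rule's own genes, and each cell was thinned to 1000 UMIs for the lists. Cells with 3, 4 to 5, 6 to 10 and over 10 marker UMIs held 15.02, 13.7, 8.35 and 4.15 progenitor UMIs on average. S phase UMIs went from 1.91 and 1.76 to 0.835 and 0.458. Mitosis UMIs had no such order, at 1, 1.81, 1.44 and 0.388 on average, although the share of cells with at least 1 was 37.0%, 31.8%, 18.9% and 10.4%. The mitosis-rich cells of the rem1 panel, described below, had a median of 5 marker UMIs. Synaptic UMIs went the other way, from 2.89 and 2.64 to 3.73 and 6.52, and ion channel UMIs from 1.5 and 2.08 to 2.16 and 3.71. Proneural UMIs did not follow the markers either, at 4.22, 5.95, 5.39 and 5.66. The amounts of progenitor and synaptic transcripts thus differed along this order, but most cells at either end held each kind. Progenitor UMIs were in 95.7% of thinned cells with 3 marker UMIs and in 90.4% of those with over 10. Synaptic UMIs were in 67.4% and 95.1%. The order is set by markers that chose the cells, so this is a description. By library, 62.0%, 54.5%, 69.6% and 36.7% of neurons had more than 10 marker UMIs. These marker counts are unthinned, and median depth differed between libraries. CHT-derived cut also held 51 of the 62 rem1 panel cells. No difference in maturation between libraries is therefore read from these shares.

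Transmitter genes were read as the share of neurons with at least 1 UMI, and a neuron without one may still use the transmitter. A gene of GABA synthesis or packaging (gad1a, gad1b, gad2 or the vesicular transporter gene slc32a1) was found in 177 neurons (27.7%, 24.2 to 31.3). After thinning to 1000 UMIs the share was 17.97%, against 0.153% of myeloid cells, which should lack these genes. By library the count was 21, 12, 66 and 78 neurons (22.8%, 27.3%, 27.5% and 29.5%), with intervals that overlapped, and thinned shares were 10.9%, 20.45%, 16.25% and 21.6%. slc32a1 itself had 72.2, 161, 172 and 117 CPM in 122 neurons and gad2 28.1, 235, 126 and 84.0 in 83, both lowest in RBI-derived normal. gad genes were in 130 neurons, of which 75 also held slc32a1.

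Vesicular glutamate transporters were found in 59 neurons (9.22%, 7.09 to 11.7; 4.38% when thinned, 0.0852% of thinned myeloid cells). Most were slc17a6b, in 47 neurons at 108, 29.4, 42.1 and 37.7 CPM. Summed over the transporters, the log2 ratio of RBI-derived normal over CHT-derived normal was 1.28 (0.549 to 1.996). Without the largest cell of each library it was 0.593 (-0.349 to 1.47). By library the 59 were 15, 3, 27 and 14 (16.3%, 6.82%, 11.2% and 5.30%). The intervals of RBI-derived normal (9.42 to 25.5) and CHT-derived cut (2.93 to 8.74) did not overlap, but these libraries differ in both colour and cut. Intervals overlapped between the normal and cut library of each colour, and between the colours within normal and within cut. Thinned shares were 9.78%, 6.82%, 5% and 1.52%. The median cell with a transporter UMI held 2549 UMIs and the median cell without one 2118. GABA and glutamate genes hardly met in a cell. Of the 59 glutamate transporter cells, 1 held a GABA gene (1.69%, 0.0429 to 9.09), against 176 of 581 other neurons (30.3%, 26.6 to 34.2), and none held slc32a1.

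The glycine transporter gene slc6a5, which marks glycinergic neurons, was in 26 neurons (4.06%), 1, 1, 14 and 10 by library. Of these 26, 24 held a GABA gene, but this was slc32a1 in 21 and a gad gene in only 14 (53.8%). A hox gene was in 25 (96.2%, against 26.9% of the other neurons). In zebrafish as in other vertebrates glycine and GABA are often released together in the hindbrain and spinal cord. Whether these cells use both was not tested. The acetylcholine genes chata, slc18a3a, slc18a3b and slc5a7a were in 25 neurons (3.91%), 3, 0, 16 and 6 by library, and 16 of the 25 held a hox gene. Monoamine genes were rare: tph2, the serotonin synthesis enzyme of the brain, was in 2 neurons, th, the dopamine synthesis enzyme, in 3 and the serotonin neuron factor gene fev in 6.

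Neuropeptide and secretory granule genes were at least 4-fold higher than in other cells for 9 of 11 (median log2 7.49), and 422 neurons (65.9%) held a UMI of the list, against 12.07% of myeloid cells. Thinned, the shares were 50.8% and 3.48%. adcyap1b, which encodes the peptide PACAP, was the most abundant and was even across libraries, with 353, 382, 295 and 357 CPM in 162 neurons. The peptide processing enzyme gene cpe was in 183 neurons at 197, 161, 255 and 111 CPM. scg2b had 96.3, 396, 327 and 206 CPM in 119 neurons, lowest in RBI-derived normal, and scg5, a chaperone of a prohormone convertase, had 0, 88.1, 71.0 and 65.1. Single peptides were confined to few cells: sst1.1 to 7, pdyn (a prodynorphin gene) to 5, tac1 (a tachykinin gene) to 8 and galn (a galanin gene) to 2.

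Position genes divided the neurons into groups that overlapped little. A hox gene was found in 190 neurons (29.7%, 26.2 to 33.4; 25.8% when thinned, 1.295% of thinned myeloid cells). A gene of 16 used in front of the hox territory (among them foxg1a, dlx2a, otx2b, six6b, emx2 and en2b) was found in 270 (42.2%, 38.3 to 46.1), both kinds in 13 and neither in 193. The frontal genes were in 6.84% of neurons with a hox UMI and in 57.1% of those without. Neurons with hox UMIs numbered 25, 14, 88 and 63 by library (27.2%, 31.8%, 36.7% and 23.9%), and those with frontal genes 43, 16, 98 and 113 (46.7%, 36.4%, 40.8% and 42.8%). Red and green libraries thus held neurons of either kind, and the intervals of red and green normal overlapped for each. The unthinned hox share of CHT-derived cut (18.9 to 29.5) lay below that of CHT-derived normal (30.6 to 43.1) beyond counting error. The median neuron of these libraries held 1833 and 2871 UMIs. Thinned hox shares, given without intervals, were 23.9%, 27.3%, 30.8% and 21.6%. No difference beyond counting error is therefore read at equal depth. The rem1 panel, described below, had 51 neurons in CHT-derived cut and 8 in CHT-derived normal, and a hox gene was in 3.23% of its cells. Hox shares by library without that panel are not given, so its part in this difference was not tested.

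The hox genes reached along the whole series. Genes of paralogue groups 1 to 4, used from the hindbrain backwards, were in 184 neurons, groups 5 to 8 in 81 and groups 9 to 13, used in the caudal trunk and tail, in 59. hoxc3a was the most abundant at 193, 338, 368 and 225 CPM in 112 neurons, followed by hoxb3a at 140, 117, 93.4 and 106 in 86. hoxa9a was in 38 neurons and hoxc10a in 26. Groups 9 to 13 were in 6, 2, 30 and 21 neurons by library (6.52%, 4.55%, 12.5% and 7.95%). Neurons with these caudal genes were therefore present in the red libraries too, in low numbers. Barcodes of 10 to 100 UMIs held hox genes at 43.6, 98.5, 150 and 247 CPM against 919, 1071, 1515 and 1095 in neurons.

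The transcription factor genes of these lists found in most neurons were meis2a, a TALE homeobox partner of Hox and Pax proteins, in 249 at 546, 983, 748 and 437 CPM, tfap2a in 154, barhl2 in 128, lhx9 in 122 and lhx5 in 102. tfap2a, a factor of neural crest and of several neuron types, had 325, 205, 153 and 578 CPM and was highest in CHT-derived cut. lhx9, a LIM homeobox factor of forebrain and midbrain neurons, had 309, 88.1, 260 and 147 and was higher in both normal libraries. barhl2, used in retina, diencephalon and spinal cord, had 173, 382, 208 and 420 and was higher in both cut libraries. lhx5, a partner of Lhx1 in interneurons, had 96.3, 88.1, 137 and 92.6 and differed least.

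To see which kinds of neuron were present, 14 small panels of known genes were set after the values had been seen, and a neuron was counted in a panel at 2 or more UMIs of it. The panels overlap and name genes, not cell types. Panel shares are unthinned unless stated, and the libraries differed in depth. No panel held 99 neurons, 1 panel held 296 and at least 2 held 245. The largest were the tfap2 panel (tfap2a, tfap2b and tfap2c) with 147 neurons, the pax2a and lhx1a panel with 115 and the lhx9 and neurod6b panel with 114. Genes reported below as shared within a panel were also chosen after their values were seen.

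**Figure D3:**
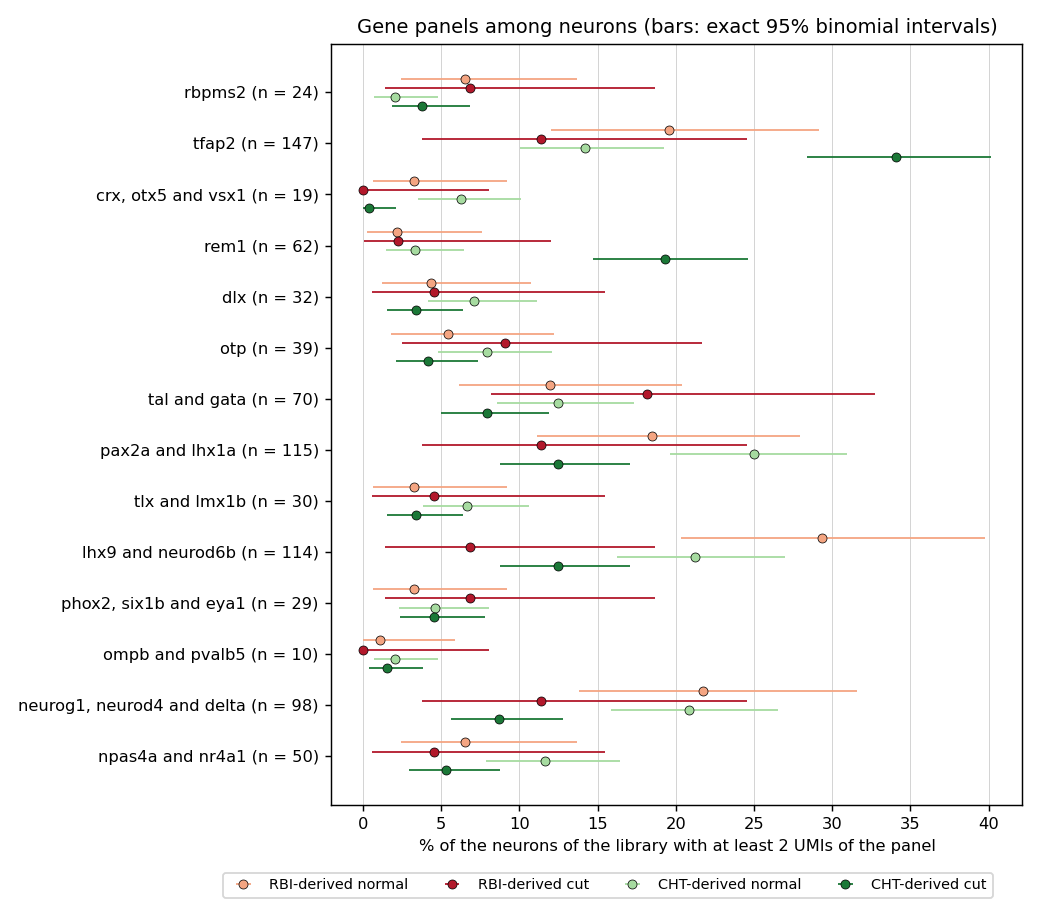
Percent of each library's neurons with at least 2 UMIs of a gene panel (horizontal) for 14 panels, with exact 95% binomial intervals. The rem1 panel reached 19.3% of neurons in CHT-derived cut and 2.17% to 3.33% in the other libraries, and the tfap2 panel 34.1% against 11.4% to 19.6%.

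Panels of genes known from inhibitory interneurons made up a large share. The pax2a and lhx1a panel (with lhx5), factors of hindbrain and spinal interneurons and of the cerebellum and midbrain boundary, was held by 17, 5, 60 and 33 neurons (18.5%, 11.4%, 25% and 12.5%; 10.9%, 11.4%, 11.7% and 7.95% when thinned). A GABA gene, counting slc32a1, was found in 48.7% of these neurons, a gad gene in 37.4% and a hox gene in 50.4%. Of these neurons 16 held slc6a5, against 10 of all other neurons. The tal and gata panel (tal1, gata2a, gata3 and sox14), factors of GABAergic neurons in midbrain and ventral spinal cord, was held by 11, 8, 30 and 21 neurons. A GABA gene was in 62.9% of them, a gad gene in 50% and a hox gene in 32.9%. The homeobox gene emx2 was in 21 of these 70 and in 10 of the others. The dlx panel, factors of forebrain GABAergic neurons, was held by 4, 2, 17 and 9 neurons, with a GABA gene in 68.8%, a gad gene in 56.25% and no hox gene in any. sp9, a zinc finger factor of forebrain GABAergic neurons in mouse, was in 9 of the 32 and in 4 other neurons. These panels thus had many cells with GABA genes in common and differed in hox genes.

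The otp panel (otpa and otpb) was held by 5, 4, 19 and 11 neurons, with 26 of the 39 also in the pax2a and lhx1a panel, and with lhx5 in 23, a GABA gene in 38.5% and a hox gene in 41.0%. Otp is known for hypothalamic neuroendocrine and dopaminergic neurons, but hindbrain and spinal neurons express it too. The lhx9 and neurod6b panel (with tfap2d) had a GABA gene in only 12.3%. It was held by 27, 3, 51 and 33 neurons (29.3%, 6.82%, 21.2% and 12.5%), and adcyap1b was in 57 of the 114 against 105 of the other 526, lhx2b in 35 against 24 and ebf1b in 36 against 36. Its share was higher in each normal library than in the cut library of the same colour, also when thinned (14.1%, 2.27%, 11.7% and 6.06%). The unthinned intervals of the CHT-derived pair overlapped, however.

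Sensory and peripheral genes were rarer. The tlx and lmx1b panel (tlx2, tlx3b, lmx1bb and drgx), factors of dorsal sensory and relay neurons, was held by 3, 2, 16 and 9 neurons, of which 26.7% had a vesicular glutamate transporter and 73.3% a hox gene. The phox2, six1b and eya1 panel, genes of cranial ganglia and visceral motor neurons, was held by 3, 3, 11 and 12 neurons, with a glutamate transporter in 24.1%, a hox gene in 69.0% and a GABA gene in none. Of its 29 cells, 11 held tlx2 and 7 the receptor gene ret. The ompb and pvalb5 panel, of which ompb marks olfactory sensory neurons in zebrafish, was held by 1, 0, 5 and 4 neurons, with a glutamate transporter in 5 of 10 and neither a hox nor a GABA gene in any. The fatty acid hydroxylase gene fa2h was in 8 of these 10 and in no other neuron.

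Retinal genes were present in all libraries. The rbpms2 panel (rbpms2a and rbpms2b), which marks retinal ganglion cells in zebrafish, was held by 6, 3, 5 and 10 neurons. The ganglion cell factors isl2b and pou4f2 were in 17 and 12 of these 24, a hox gene in none and tfap2a in none. The crx, otx5 and vsx1 panel, genes of photoreceptor and bipolar precursors, was held by 3, 0, 15 and 1 neurons, and 14 of the 19 were also in the proneural panel. elavl3 was in only 5 of those 19 and nsg2 in 15, and 112 progenitor-like cells also held 2 UMIs of this panel, so the rule took a minor share of such cells.

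The tfap2 panel, known from amacrine cells of the retina but also from hindbrain and spinal interneurons, was held by 18, 5, 34 and 90 neurons (19.6%, 11.4%, 14.2% and 34.1%; 10.9%, 11.4%, 6.67% and 23.9% when thinned). tfap2e was in 47 of the 147 against 15 of the other neurons, pax6a in 61 against 40, six6b in 42 against 39 and barhl2 in 59 against 69. A GABA gene was in 39.5% and a hox gene in 17.7%. Leaving out cells of the rem1 panel, 109 neurons remained (18, 5, 28 and 58), and of these 47 held pax6a or pax6b (5, 0, 7 and 35). Of these 47, 35 held a GABA gene, 27 of them in CHT-derived cut. Most neurons with both tfap2 and pax6 genes outside the rem1 panel were thus in CHT-derived cut.

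The rem1 panel (rem1, a small GTPase gene, and prkar2ab, a protein kinase A subunit gene) was the group most tied to 1 library. It was held by 2, 1, 8 and 51 neurons, or 2.17%, 2.27%, 3.33% and 19.3% (14.7 to 24.6), and 1.09%, 2.27%, 2.5% and 12.5% when thinned. Its 62 cells went against the neuron label in part, because stmn1b was in 61 and gng3 in 48, but elavl3 in 12, elavl4 in 4 and nsg2 in 4. At least 3 mitosis UMIs were found in 54 of the 62 (87.1%, 76.1 to 94.3), against 31 of the other 578 neurons (5.36%, 3.67 to 7.53), and mitosis genes summed to 4463 and 578 CPM. They held retinal genes as well. onecut1 was in 47 and prox1a in 24, factors that mouse horizontal cells need, tfap2b in 43, pax6b in 39, isl1 in 35 and cx52.9, a connexin of horizontal cells in zebrafish, in 14 against 3 of the other neurons. pde6gb, a phosphodiesterase subunit gene, was in 54 against 16, tnr, an extracellular matrix gene, in 50 against 28, btbd17a in 33 against 1 and mab21l3 in 21 against none. A GABA gene was in 12.9% and a hox gene in 3.23%. They thus held mitosis and retinal genes together and passed the marker limit mainly through stmn1b and gng3, and they were given no type name.

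**Figure D4:**
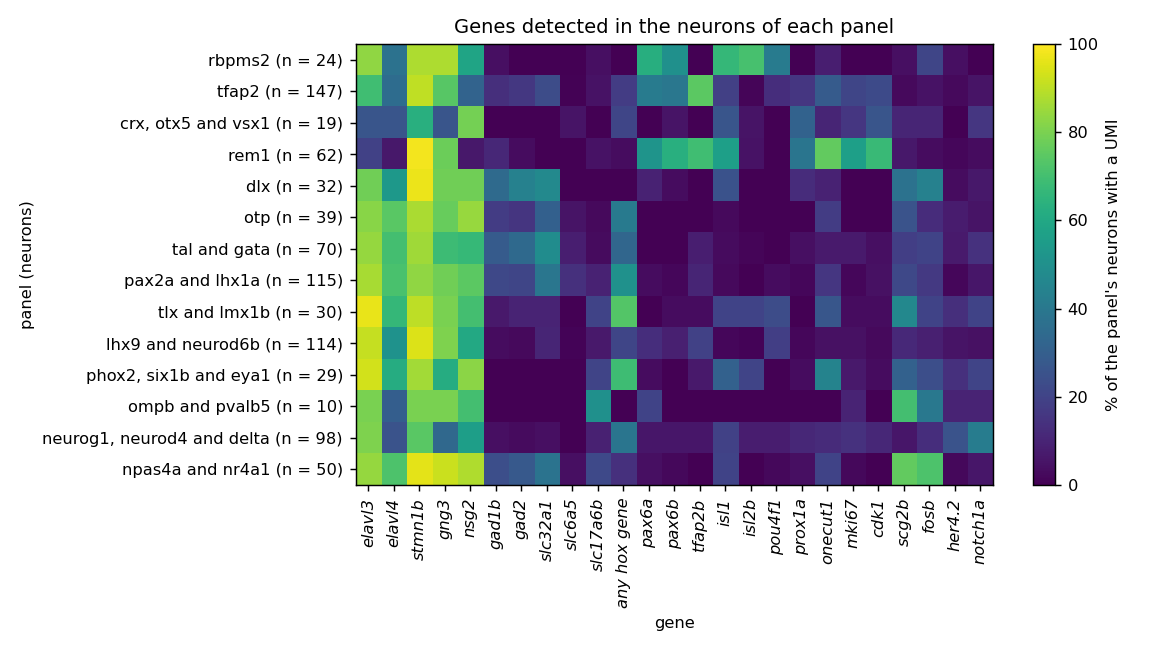
Percent of the neurons of each panel (rows, with the number of neurons) in which a gene (columns) had at least 1 UMI, as colour from 0 to 100. A GABA gene was most frequent in the dlx (68.8%) and the tal and gata (62.9%) rows. A hox gene was most frequent in the tlx and lmx1b (73.3%) and the phox2, six1b and eya1 (69.0%) rows. The pax2a and lhx1a row held both often (48.7% and 50.4%). No cell of the dlx, rbpms2 or ompb row held a hox gene, and onecut1 was frequent in the rem1 row.

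Outside the rem1 panel few neurons held at least 3 mitosis UMIs, but at least 3 S phase UMIs were in 53 of 578 (9.17%). In CHT-derived normal these were 31 of 232 (13.4%). Mitosis genes outside the panel summed to 1675 CPM in RBI-derived cut and 664 in RBI-derived normal. Over all neurons, 8 of 92, 4 of 44, 19 of 240 and 54 of 264 held at least 3 mitosis UMIs (8.70%, 9.09%, 7.92% and 20.45%). Without the rem1 panel the share in CHT-derived cut was 8 of 213 (3.76%, 1.64 to 7.27), so the higher share in that library lay with the rem1 cells. The proneural panel (neurog1, neurod4, dla, dlb and dld) was held by 20, 5, 50 and 23 neurons (21.7%, 11.4%, 20.8% and 8.71%). The intervals of these unthinned shares did not overlap for the CHT-derived pair (15.9 to 26.5 and 5.60 to 12.8). Those of the RBI-derived pair did (13.8 to 31.6 and 3.79 to 24.6). Thinned shares, given without intervals, were 8.70%, 6.82%, 11.7% and 4.17%. Its 98 cells held notch1a in 41 against 12 of the other 542, her4.2, a Notch target, in 25 against 10 and cdkn1ca, which encodes an inhibitor of the cell cycle, in 66 against 84. Activity-related genes npas4a and nr4a1 marked 6, 2, 28 and 14 neurons, or 0%, 4.55%, 5% and 2.65% when thinned. In this panel fosb was in 36 of 50 against 68 of the other 590 and scg2b in 38 against 81, and a GABA gene was in 44.0% and a glutamate transporter in 26.0%.

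The study compared normal red with normal green cells, cut with normal cells of each colour, and red with green cells after the cut. The same comparisons were made within the neurons as ratios of summed UMIs, with 1 library on each side. They share libraries, so a value peculiar to 1 library enters 2 of them. In RBI-derived normal against CHT-derived normal, 63 of 2803 genes with at least 50 UMIs were at least 2-fold higher (2.25%) and 144 lower (5.14%). With TMM scaling all log2 ratios shifted by -0.22 and the split was 37 and 254. A single cell held more than 50% of the UMIs on the higher side for 61 of the 207 genes. Leaving out the top cell of each gene, here and below, took its UMIs of that gene from the higher side only. After this, 6 genes remained higher and 95 lower.

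The genes highest in red neurons at rest show this. The placode gene eya1 had 53 UMIs against 16, a log2 ratio of 3.34 (2.51 to 4.24), but 84.9% came from 1 cell and the ratio without it was 0.65. phox2a (2.59), smad1 (2.74) and adcy2b (2.61) came mostly from the same large neuron. Without its UMIs of these genes their log2 ratios were -0.64, -0.63 and -0.35. These ratios kept its other UMIs in the library total, so they are not those of the library without that neuron. isl2b, a factor of sensory and retinal ganglion neurons, differed from these: it had 68 UMIs in 8 cells against 27 in 8, a log2 ratio of 2.94 and 2.43 without its top cell. The lowest genes were absent from red neurons and, in green neurons, were mostly of 1 cell: the keratin genes krt4 (281 UMIs, 99.6% in 1 cell), krtt1c19e (176, 98.9%) and cyt1 (164, 99.4%), sst1.2 (158, all in 1 cell) and s100z (208, 58.7%). What was rich in keratin UMIs counted as a neuron by the marker limit alone, and its type was not tested. Among genes spread over at least 10 cells, which were picked after the values were seen, the Wnt effector gene tcf7l2 was higher in red neurons (log2 1.62, 13 and 16 cells), as was the midbrain boundary gene en2b (1.26), while gad2 (-2.17), hoxb8a (-3.06) and scg5 (0 against 54 UMIs) were lower. GABAergic genes as a list had a log2 ratio of -1.20.

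In RBI-derived cut against RBI-derived normal, 35 of 925 genes were at least 2-fold higher (3.78%) and 45 lower (4.86%), and with TMM, a shift of -0.39, the split was 12 and 111. Without the top cell of each gene 11 remained higher and 16 lower. RBI-derived cut had only 44 neurons. scg2b was the highest gene at log2 2.04 (1.19 to 2.897), with 27 UMIs in 11 neurons against 24 in 11. snap25b at 1.84 rested on 1 cell and had 0.42 without it. mtus1b (1.81, or 1.63 without its top cell), a microtubule-linked tumour suppressor gene, aldocb (1.76 and 1.40), a brain aldolase gene, and mab21l2 (1.76 and 1.15) rested less on 1 cell. Their top cells held 12%, 23.1% and 35.1% of the UMIs. pvalb5 (0 against 86 UMIs), vim (0 against 55), eya1 (0 against 53), phox2a (2 against 192) and si:dkey-117m1.4 (1 against 49) were the lowest. In RBI-derived normal 1 cell held all UMIs of pvalb5. The top cell of each of the others held 65.5%, 84.9%, 89.6% and 57.1% of the UMIs, in the order named. Without that cell their log2 ratios were -3.41, -2.22, -1.16 and -1.97. Of genes spread over cells, dla (-2.54), lhx9 (-1.81) and insm1a (-1.49) were lower after the cut.

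In CHT-derived cut against CHT-derived normal, the comparison with the most neurons on both sides, 146 of 3560 genes were at least 2-fold higher (4.1%) and 182 lower (5.11%). TMM shifted the ratios by -0.03 and gave 141 and 200. Without the top cell of each gene 103 remained higher and 118 lower. The highest genes, absent or nearly so at rest, again came from few cells: smtlb, a somatolactin gene (466 UMIs, 99.4% in 1 cell), urp1, a urotensin peptide gene of cerebrospinal fluid-contacting neurons (165, 99.4%), wnt4b (107, 52.3%), npr3 (74 against 1, 50%) and ccn2a (207 against 3, 48.3%). Such cells, among them the one rich in smtlb, counted as neurons by the marker limit alone, and their type was not tested. Genes spread over many cells included those of the rem1 panel. rem1 had 169 UMIs in 54 neurons against 36 in 9 (log2 2.61), prkar2ab 3.16, si:ch211-56a11.2 3.19 and pde6gb 2.39. tfap2c (2.33), pax6b (2.03), tfap2a (1.92), pax6a (1.87) and onecut1 (1.79) were higher as well. The rem1 panel was picked because of this library, so these values describe it and add no support.

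The genes lowest in green neurons after the cut had no UMI there. crx had 0 UMIs against 63 in 15 neurons, aep1 0 against 87 in 1, sst1.2 0 against 158 in 1, tac1 0 against 72 in 7, of which 69.4% were in 1, and or111-11, an odorant receptor gene, 0 against 62, of which 98.4% were in 1. nhlh2, a factor of young neurons, had 21 UMIs in 12 neurons against 197 in 67 (log2 -2.85). barhl1a (-2.66), sox2 (-2.20), otpb (-2.08), mdka (-2.01), pax2a (-1.79) and dla (-1.64) were lower too. As lists, midbrain and hindbrain boundary genes had a log2 ratio of -0.94, neuropeptide genes -0.77, GABAergic genes -0.65, proneural genes -0.50, cytoskeleton genes -0.49, hox genes -0.47, the rule markers -0.35 and synaptic genes -0.33. Mitosis genes had 1.105, retinal genes 0.81 and progenitor genes 0.13. The progenitor value is of the summed UMIs, and its members mostly went the other way. Of 29 members with enough UMIs, 4 were at least 2-fold higher and 10 lower, with a median log2 ratio of -0.46. Muscle genes (log2 1.52) and macrophage genes (1.08) were higher too. All of these list values include the neurons of the rem1 panel, 51 in CHT-derived cut and 8 in CHT-derived normal. Without that panel, mitosis genes summed to 381 CPM in CHT-derived cut and 578 in CHT-derived normal, the opposite direction. No rise of mitosis genes after the cut is therefore read for the other green neurons. The other lists are not given without the panel. Muscle genes were at 36.1, 14.7, 147 and 423 CPM in neurons and at 614, 545, 3108 and 11766 in droplets of 10 to 100 UMIs. The macrophage chemokine gene ccl34a.4 had 54 UMIs in neurons after the cut against 6 before it. The part of free RNA in the differences between libraries was not tested.

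In RBI-derived cut against CHT-derived cut, 93 of 1868 genes were at least 2-fold higher (4.98%) and 179 lower (9.58%). The split with TMM was 21 and 452 after a shift of -0.59, which also turned the log2 ratio of the list of rule markers from 0.55 to -0.03 and that of synaptic genes from 0.46 to -0.13. Of the genes past the fold, 29 stayed higher and 142 lower without their top cell. rem1 had 0 UMIs in red neurons against 169 in 54 green neurons. pvalb5 (0 against 456), smtlb (0 against 466), ccn2a (0 against 207) and icn (0 against 165) were the other lowest genes. In green neurons 1 cell held 99.4% of the smtlb UMIs, 73.5% of those of pvalb5, 52.7% of those of icn and 48.3% of those of ccn2a. Too few smtlb UMIs remained without its top cell for a ratio to be read. The highest were otpb (2.87, or 1.96 without its top cell), mdka (2.68 and 1.75), hspbp1 (2.26 and 1.24), zbtb16a (2.06, in 12 and 24 cells), a zinc finger gene of early neural cells, and CT990561.1 (1.97).

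**Figure D5:**
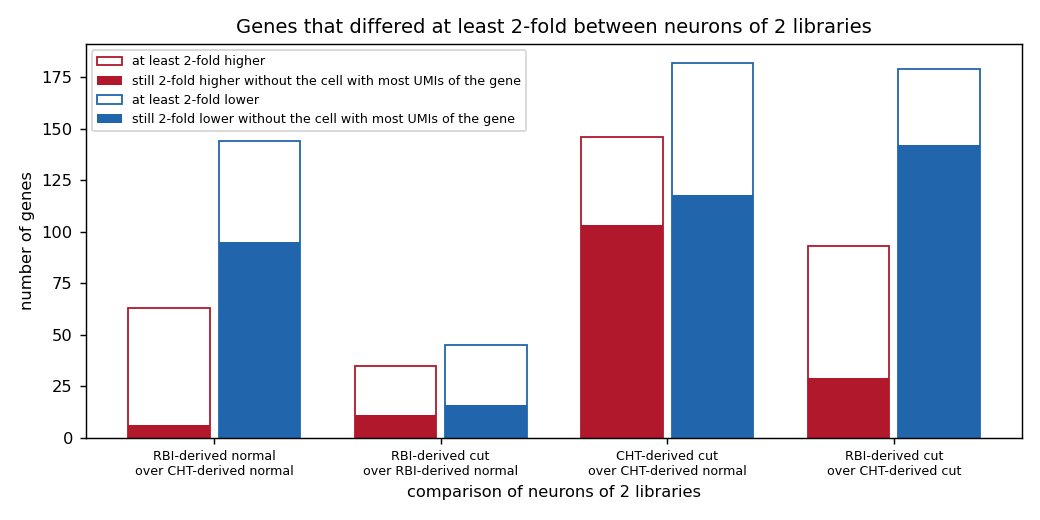
Number of genes (vertical) at least 2-fold higher (red outline) or lower (blue outline) in each of the 4 comparisons of neurons between libraries (horizontal). The filled part shows those still past the fold without the UMIs of the gene's top cell on the higher side, a step that could only remove genes. CHT-derived cut against normal had 146 higher and 182 lower genes and kept 103 and 118 without the top cells, whereas RBI-derived against CHT-derived normal kept 6 of its 63 higher genes.

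The neurons held little of the RNA for which the cells were sorted. lyz, a neutrophil lysozyme gene limited by the rule, had 1529, 1365, 1209 and 1659 CPM in neurons, against 125670, 69935, 83436 and 58481 in myeloid cells and 80958, 50373, 62578 and 34523 in droplets of 10 to 100 UMIs. mpx had 40.1, 191, 42.1 and 63.4 CPM in neurons. Dendra2, the sorted reporter, had 265, 191, 142 and 291 CPM in neurons and 12816, 11255, 5935 and 4888 in myeloid cells, with 118, 259, 159 and 250 in progenitor-like cells. The 651 cells that were neither myeloid, neurons nor progenitor-like had 841, 2427, 559 and 406 CPM, above neurons in each library. In droplets of 10 to 100 UMIs Dendra2 had 14607, 5692, 6646 and 1785 CPM, lowest in CHT-derived cut. The intervals of its level in neurons overlapped between CHT-derived cut (249 to 339) and RBI-derived normal (205 to 337). At least 1 Dendra2 UMI was found in 47.8%, 22.7%, 23.8% and 24.2% of neurons. Against all other cells, which were mostly the myeloid cells that the rule had set aside, 21 of 21 neutrophil genes and 20 of 21 macrophage genes were at least 4-fold lower, beside 17.1% of all genes, and nothing is read from this. Against progenitor-like cells, which passed the same myeloid limits, none of 11 tested neutrophil genes was 4-fold higher or lower (median log2 0.16). The level of Dendra2 in neurons was thus of the same order as in progenitor-like cells and far below that of myeloid cells. How the neurons passed the gate was not tested.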

How the data were processed

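The deposited files were 4 matrices of UMI counts per gene and barcode, 1 for each condition, which the authors made with Cell Ranger 7.1.0 per the file headers, with the genome build GRCz11 per the submitters' processing notes. The 16 entries of the series, 4 for each condition, share these matrices, and no replicate could be told apart. All barcodes were read, and the limits on cells and the neuron rule were applied to the counts as deposited. The matrices held 8874272 to 17303744 UMIs in all. Counts were summed over neurons and divided by total UMIs. Intervals are exact Poisson, Clopper-Pearson and conditional binomial ones. No p-value is given, since each condition is 1 library, and genes past a fold are counts with no test.

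Genes needed 100 UMIs over both sides for the 4-fold comparisons with other cells and 50 UMIs for the 2-fold comparisons between libraries. Medians, fold calls and ratios without a top cell added 0.5 UMIs to each sum. Leaving out a gene's top cell removed only its UMIs of that gene, on the side where the gene was higher. Library totals and the other side were kept. A fold against 0 UMIs used a floor of 3 UMIs over the group. Shares of cells with a transmitter, hox or panel gene are also given after thinning each cell to 1000 UMIs, where stated. Named genes were the rule markers, the members of 34 gene lists with the highest levels in neurons, transmitter, peptide and position genes in at least 1% of neurons, the genes with the largest ratios in each comparison, and lyz, mpx, Dendra2 and hemoglobin genes. The members and lists were chosen with earlier results of these data known, and the panels and further genes after their values were seen. Some genes that the rule names are not reported here. Scripts were tested on simulated data. Doublets were kept in the main values, and a nearest-neighbour score used as an alternative removed 1, 0, 4 and 1 neurons. Alternatives changed the limits on cells, the markers, the scaling, the gene minimum and the thinning, or left out a library. TMM factors came from edgeR 4.0.16 under R 4.3.3. All other values were computed with Python 3.11.15, pandas 2.3.3, scipy 1.17.1 and numpy 2.4.6, and plots were drawn with matplotlib 3.10.9.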

Additional observations from a re-analysis of the deposited data

Results flagged for a closer look

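Cells that the rule set aside as myeloid also held neuron markers. In CHT-derived cut 29 myeloid cells had at least 3 UMIs of the 5 markers (1.33%, 0.896 to 1.91), against 3, 4 and 4 in RBI-derived normal, RBI-derived cut and CHT-derived normal (0.300%, 0.272% and 0.327%). These cells were left out of all comparisons.

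For 11 gene lists the neurons of the cut library differed from those of the normal library in opposite directions in red and green cells. Each direction rests on 1 library against 1, and the difference between the colours was not tested. In RBI-derived and CHT-derived neurons the log2 ratio of cut over normal was 0.24 and -0.49 for cytoskeleton and growth cone genes, 0.47 and -0.33 for synaptic genes, 1.43 and -0.65 for GABAergic genes and 0.61 and -0.77 for neuropeptide genes. It was 0.57 and -0.94 for midbrain and hindbrain boundary genes, 0.59 and -0.49 for hindbrain and spinal cord genes outside the hox clusters and 0.16 and -0.36 for immediate early and stress genes. With TMM scaling the RBI-derived values of cytoskeleton and of immediate early genes turned to -0.16 and -0.23, and no longer opposed those of CHT-derived neurons. TMM also lowered the RBI-derived values of synaptic genes to 0.08, of midbrain and hindbrain boundary genes to 0.18, of hindbrain and spinal cord genes to 0.20 and of neuropeptide genes to 0.21. Without the largest cell of each library the value of immediate early genes was -0.07.

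Several of these lists were set by members that their name does not lead one to expect. The monoaminergic list (0.88 and -0.84) was mostly otpa and otpb, and the pigment and neural crest list (-0.87 and 1.28) mostly tfap2a. Motor neuron genes (-1.96 and 0.51) and somatosensory genes (-0.68 and 0.58) drew on phox2a and eya1 of 2 large neurons. Without the largest cell of each library their values were -0.68 and -0.12 for motor neuron genes and 0.13 and 0.29 for somatosensory genes, so that neither list then had opposite directions.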

How the results depend on the processing

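No paired analysis was possible because each condition is 1 matrix with no replicate. Of the alternative values of the shares of neurons, transmitter, hox and mitosis cells and of the counts of genes, 189 stayed within the counting interval (or within 1.5 times for a count) and 54 moved. For the panel shares and the ratio of hox levels between the normal libraries, 16 alternative values stayed within the interval and 16 moved. The share of neurons was highest in CHT-derived normal and lowest in RBI-derived cut in each alternative given here.

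A minimum of 2000 UMIs gave neurons a share of 6.09%, 0.381%, 11.3% and 4.81% in the order of the report, 25.2% of neurons with a mitosis UMI when thinned (17.3% in the main values) and 155 genes for RBI-derived cut against normal. The cell calling rule of Cell Ranger 2 gave CHT-derived normal 11.3%. Asking for 2 marker UMIs gave 10.2% in CHT-derived cut and 20.9% with a mitosis UMI. Asking for 5 gave 11.4% and 7.11% in the CHT-derived libraries and 14.3% with a mitosis UMI. Asking for 3 after thinning gave 10.4% and 6.70% there, 11.9% with a mitosis UMI, 211 genes for CHT-derived cut against normal and 145 between the cut libraries. The rule without elavl3 gave 11.4% in CHT-derived normal, and that without stmn1b 7.01% in CHT-derived cut, 33.9% with a hox UMI and 10.9% with a mitosis UMI. A limit of 5% on mitochondrial UMIs gave RBI-derived normal 9.39%, and one of 0.2% on lyz gave 4.93% there and 10.2% and 6.53% in the CHT-derived libraries. Without the rem1 panel, an alternative added after the data were seen, CHT-derived cut had 7.28% and 9.86% of neurons had a mitosis UMI. Unthinned, 25% had one.

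Thinned cells gave 17.97% with a GABA gene, 4.38% with a glutamate transporter and 25.8% with a hox gene, and 2 UMIs of the list gave 17.0% and 1.88% for the first 2. Leaving out 1 library gave 8% to 11.97% with a glutamate transporter, the highest without CHT-derived cut, 12.5% to 19.2% with a mitosis UMI, the lowest without CHT-derived cut, and 300 to 568 genes higher than in progenitor-like cells, the lowest without CHT-derived normal.

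Thinning gave 784 genes higher than in all other cells, 193 higher than in progenitor-like cells and 48, 12, 114 and 98 in the 4 library comparisons in the order of the report. A gene minimum of 10 UMIs gave 5077, 1835, 1652, 949, 1684 and 2130. TMM gave 1179 higher than in all other cells, 123 for RBI-derived cut against normal and 473 between the cut libraries. Leaving out myeloid cells gave 823 genes higher than in the others, and leaving out the top cell of each gene 134 and 39 for the first 2 library comparisons, with genes that passed the fold only then counted in. RBI-derived cut, with 68137 neuron UMIs, limits each comparison that uses it.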
